A study of Mus musculus with 9 samples.

Results

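The genes described here mark the epithelium of the choroid plexus, the tissue that lines parts of the brain ventricles and secretes cerebrospinal fluid. The list held 5 genes (Ttr, Folr1, Kl, Otx2 and Clic6), each chosen by its Ensembl identifier. Of these, 4 matched a row among the 12188 genes of the expression table, namely Ttr (ENSMUSG00000061808_at), Folr1 (ENSMUSG00000001827_at), Otx2 (ENSMUSG00000021848_at) and Clic6 (ENSMUSG00000022949_at). The identifier listed for Kl, which encodes the Klotho protein, had no matching row, and Kl was not analysed here.

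The RNA came from the dorsal telencephalon, the roof of the embryonic forebrain that becomes the cerebral cortex, of C57Bl6/J mouse embryos at stage E13.5 (days of embryonic development). A first group of 5 embryos was labelled as Dicer knockout and as depleted of microRNAs (replicates 5, 7, 9, 10 and 11, all male). Dicer is the enzyme that cuts microRNA precursors. The other 4 embryos were labelled as controls without this depletion (replicates 1 and 2 female, 3 and 4 male). The series calls the knockout conditional, but the Cre line, the Dicer allele and the cells in which it was deleted are not stated in the labels. The control titles begin with HTZ, and whether these embryos carried 1 deleted allele or Cre is not stated. Each embryo was measured on 1 array. The design text calls the embryos partly littermates without saying which shared a litter, so all tests took them as independent.

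In the mouse, the telencephalic choroid plexus forms from the dorsal midline, next to the cortical hem and beside the tissue dissected here. Its epithelium turns on Ttr early and strongly, which makes the gene a common marker of this tissue. Otx2 is a transcription factor that the mouse choroid plexus needs in order to form, and it is also active in the midline and in the diencephalon. Because the samples were pieces of whole tissue, fewer choroid plexus cells and less RNA per choroid plexus cell cannot be told apart in these values.

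The deposited values are log2 expression summaries, and they ran from 2.72 to 14.1 over the table with array medians between 7.61 and 7.75. Control 4 stood apart: its root mean square deviation from the other controls over all genes was 0.397 log2 units and 448 genes were off by at least 1 log2 unit. The same deviation was 0.166 to 0.274 for the knockouts and 0.177 to 0.216 for controls 1 to 3. At 4 genes, controls 1 to 3 were separated from control 4 and every knockout by at least 1.5 log2 units, whereas 0 genes divided the embryos labelled female from those labelled male by that much. Whether the sex label of control 3 holds was not tested. Values without control 3 or control 4 are given below where leaving either out moved a group difference by over 1.5 times. Dicer1 and marker genes of the cortex or of neighbouring tissues were not analysed here, since no table paired their names with the identifiers. The tissue label was therefore not checked against markers of the cortex.

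No difference between Dicer knockout and control embryos passed the test for any of the 4 choroid plexus genes, and the values of the groups overlapped for each of them. Ttr and Folr1 had slightly lower means in the knockouts, and Otx2 and Clic6 slightly higher ones. Within 1 group, the highest and lowest embryos differed by up to 2.48-fold in Folr1 and Otx2. This is a range over single embryos and not a measure like the difference between means. Knockout 10 had the highest value of its group for all 4 genes.

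Ttr encodes transthyretin, a carrier of thyroid hormone and of retinol-binding protein that the choroid plexus secretes into the cerebrospinal fluid. Its log2 values in knockouts 5, 7, 9, 10 and 11 were 12.97, 13.43, 13.24, 13.58 and 13.47, and in controls 1, 2, 3 and 4 they were 13.27, 13.62, 13.43 and 13.43. Knockouts 5 and 9 lay below every control, and no knockout lay above the highest control. The mean was 13.34 ± 0.24 (SD, n = 5) in the knockouts and 13.44 ± 0.14 (SD, n = 4) in the controls. The log2 difference was -0.10 (SE 0.12, 95% confidence interval -0.37 to 0.17), which is 0.933-fold with an interval of 0.772 to 1.13. It did not pass the test (limma with Benjamini-Hochberg adjustment over all genes, two-sided, adjusted p = 0.601). Without knockout 5 the log2 difference was -0.0082 (limma, adjusted p = 0.963), without control 2 it was -0.04, and without knockout 10 and control 1 in turn it was -0.16 and -0.15. Ttr was within 0.46 to 1.06 log2 units of the highest value on each array. Array signals can be compressed near their upper end. The part of this in the range of Ttr, which was narrower than those of Folr1, Otx2 and Clic6, was not tested.

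Folr1 encodes folate receptor alpha, which carries folate across the choroid plexus epithelium into the cerebrospinal fluid. Knockouts 5, 7, 9, 10 and 11 had log2 values of 6.76, 7.58, 7.46, 8.07 and 7.30, and controls 1, 2, 3 and 4 had 7.28, 8.04, 7.60 and 7.68. The lowest and the highest of all 9 values were both in knockouts, in embryos 5 and 10. The group means were 7.43 ± 0.47 (SD, n = 5) in the knockouts and 7.65 ± 0.31 (SD, n = 4) in the controls. Their log2 difference of -0.22 (SE 0.23, 95% confidence interval -0.74 to 0.30) did not pass the test (limma, adjusted p = 0.548). This corresponds to 0.86-fold, with an interval of 0.599 to 1.23. The log2 difference was -0.05 without knockout 5, -0.09 without control 2, -0.34 without control 1 and -0.38 without knockout 10 (limma, adjusted p = 0.883, 0.838, 0.389 and 0.227).

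Otx2, the transcription factor of the set, had log2 values of 9.11, 8.65, 8.85, 9.54 and 9.27 in knockouts 5, 7, 9, 10 and 11, against 8.69, 8.92, 8.18 and 9.49 in controls 1, 2, 3 and 4. Controls 3 and 4, both labelled male, held the lowest and the second highest of all 9 values, with both females between them. The mean was 9.08 ± 0.35 (SD, n = 5) in the knockouts and 8.82 ± 0.54 (SD, n = 4) in the controls. The log2 difference of 0.26 (SE 0.25, 95% confidence interval -0.30 to 0.82), or 1.20-fold with an interval of 0.814 to 1.76, did not pass the test (limma, adjusted p = 0.497). Its size rested on single arrays. Without knockout 10 it was 0.15 (limma, adjusted p = 0.719). Without control 4 the log2 difference was 0.49 (limma, adjusted p = 0.120) and without control 3 it was 0.05 (limma, adjusted p = 0.903).

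Clic6 encodes a member of the chloride intracellular channel family that is abundant in choroid plexus epithelium. Its log2 values were 9.53, 9.67, 9.08, 10.34 and 9.62 in knockouts 5, 7, 9, 10 and 11, against 9.24, 9.60, 9.47 and 9.91 in controls 1, 2, 3 and 4. Knockout 10 lay above every control and knockout 9 below every control, while the other 3 knockouts fell within the range of the controls. The mean was 9.65 ± 0.45 (SD, n = 5) in the knockouts and 9.56 ± 0.28 (SD, n = 4) in the controls. The log2 difference of 0.09 (SE 0.22, 95% confidence interval -0.40 to 0.58), or 1.07-fold with an interval of 0.758 to 1.5, did not pass the test (limma, adjusted p = 0.801). Its sign turned without knockout 10, to -0.08 (limma, adjusted p = 0.772), and without control 1, to -0.01 (limma, adjusted p = 0.976). It was 0.21 without control 4 and 0.23 without knockout 9 (limma, adjusted p = 0.548 and 0.452).

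**Figure D1:**
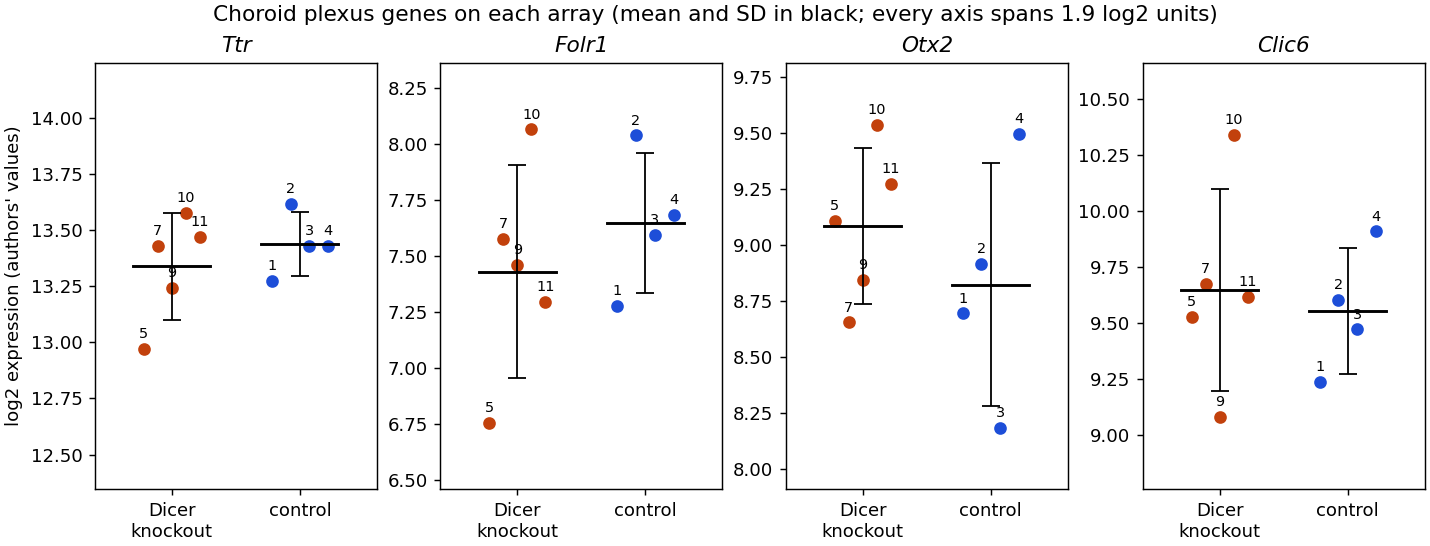
Log2 expression of the 4 choroid plexus genes in each embryo, Dicer knockouts (orange, n = 5) on the left and controls (blue, n = 4) on the right of each panel; numbers are replicate numbers, black lines the mean and error bars the SD. The groups overlap for every gene, knockout 10 is the highest knockout in all 4 panels, and controls 3 and 4 lie far apart for Otx2 at 8.18 and 9.49.

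Over all genes of the table, 24.6% differed between knockouts and controls at an adjusted p under 0.05 (limma), and 0 of the 4 choroid plexus genes did. At an unadjusted p under 0.05 the counts were 36.7% of all genes and 0 of 4. Groups that do not overlap were found for 24.1% of all genes and for none of these 4. With an average of about 1 call expected in 4 genes at this background, the absence of calls is not a result particular to the choroid plexus genes. An exact permutation test of each gene over all ways to divide the arrays into 5 and 4, two-sided, gave p = 0.508 for Ttr, 0.460 for Folr1, 0.429 for Otx2 and 0.762 for Clic6, where the smallest p possible is 0.0159. The confidence intervals leave room for differences of 1.13-fold to 1.76-fold upward and down to 0.599-fold to 0.814-fold, depending on the gene, so they do not show that the genotypes have equal levels.

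Since all knockouts were labelled male, the knockouts were also set against the 2 controls labelled male, in a limma fit of 3 groups by genotype and sex. None of the 4 genes passed (0 called, against 10.5% of all genes). The log2 differences were -0.09 for Ttr (95% confidence interval -0.46 to 0.27), -0.21 for Folr1 (-0.90 to 0.49), 0.24 for Otx2 (-0.50 to 0.99) and -0.04 for Clic6 (-0.68 to 0.59). Clic6 thus had the opposite sign from the comparison with all controls. The value for Otx2 depended on which male control was kept, at 0.90 without control 4 (limma, adjusted p = 0.122) and -0.41 without control 3 (limma, adjusted p = 0.342). Clic6 had 0.18 without control 4 and -0.26 without control 3 (limma, adjusted p = 0.853 and 0.656). Each of these fits rests on a lone control male, which is assumed to vary like the other groups. The whole contrast takes the sex label of control 3 as given, and that label was not tested. At 4 genes, control 3 lay with controls 1 and 2, apart from control 4 and every knockout by at least 1.5 log2 units. Without knockout 5, the differences from control males were -0.00016 for Ttr and -0.04 for Folr1. Without knockout 10 they were -0.15 for Ttr, -0.37 for Folr1, 0.13 for Otx2 and -0.22 for Clic6, and without knockout 9 the value for Clic6 was 0.10.

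**Figure D2:**
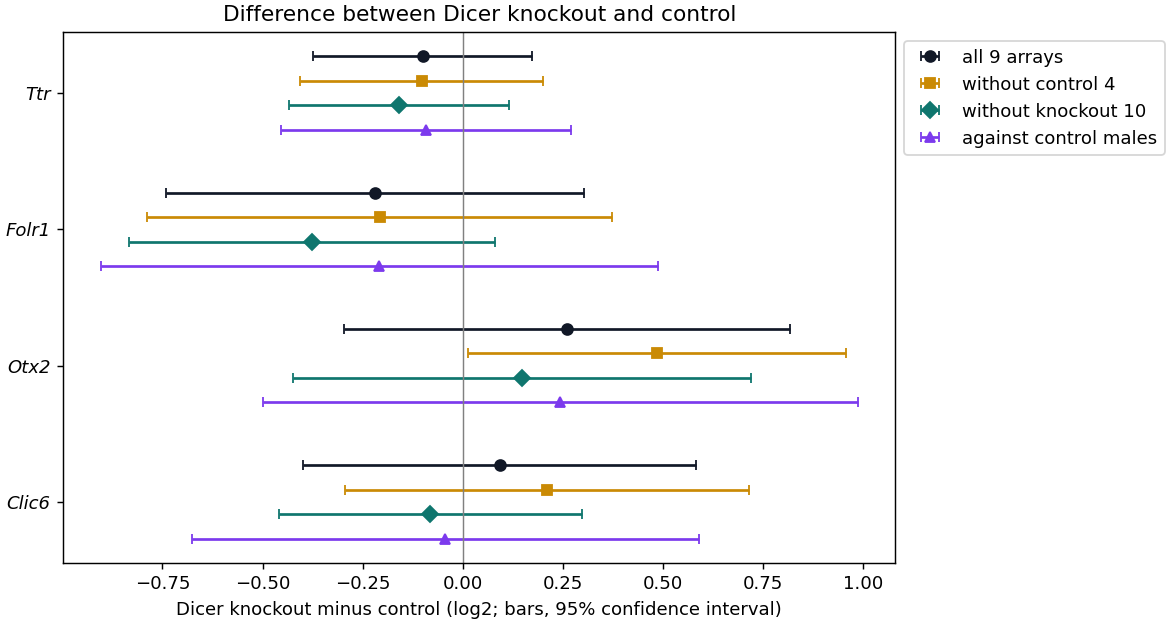
Difference between Dicer knockout and control in log2 units for each choroid plexus gene, with 95% confidence intervals from limma. Rows of points show the fit of all 9 arrays, the fits without control 4 and without knockout 10, and the contrast with control males. The interval includes 0 for every gene in the fit of all 9 arrays. For Otx2 without control 4 it runs from 0.014 to 0.956, with no adjustment for the number of genes (limma, adjusted p = 0.120).

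The spread between embryos of 1 genotype was wide at 3 of the 4 genes relative to most genes of the table. The SD between embryos, pooled over both groups after subtraction of the group means, was 0.202 log2 units for Ttr, 0.412 for Folr1, 0.442 for Otx2 and 0.387 for Clic6. Over all genes the median of this SD was 0.143. Folr1, Otx2 and Clic6 exceeded 96.0%, 96.9% and 95.1% of all genes, and Ttr exceeded 74.1%. With the genes divided by mean level into 4 bins of 3047, and each gene set against its own bin, the shares were 93.8% for Folr1, 98.3% for Otx2, 97.3% for Clic6 and 84.0% for Ttr. These ranks are descriptions, with no test.

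On the linear scale, the highest knockout exceeded the lowest by 1.52-fold for Ttr, 2.48-fold for Folr1, 1.84-fold for Otx2 and 2.39-fold for Clic6. Among the controls the same ratio was 1.27 for Ttr, 1.69 for Folr1, 2.48 for Otx2 and 1.59 for Clic6. Otx2 was thus the only gene of the 4 with the wider range in the controls, where the extremes were controls 3 and 4. The difference in spread between the genotypes was not tested.

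**Figure D3:**
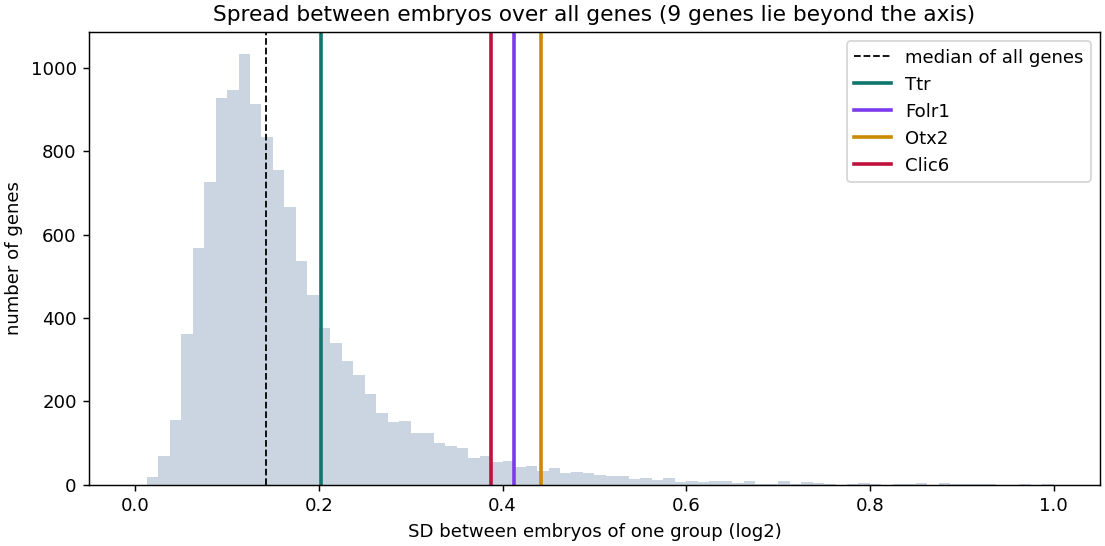
Histogram of the SD between embryos of 1 group (x axis, log2 units) over all 12188 genes (y axis, number of genes), with coloured lines for the choroid plexus genes and a dashed line for the median of all genes. Clic6, Folr1 and Otx2 lie in the upper tail at 0.387, 0.412 and 0.442, and Ttr lies closer to the median at 0.202.

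The embryos that were high or low differed in part from gene to gene. Knockout 10 was above the mean of its group for 4 of 4 genes, by 0.24 log2 units for Ttr, 0.63 for Folr1, 0.45 for Otx2 and 0.69 for Clic6. Set against the mean of the other 4 knockouts, its deviation was matched or exceeded in size by 0.697% of all genes for Folr1, 0.501% for Clic6, 2.31% for Otx2 and 12.2% for Ttr. Over the whole table, knockout 10 differed from the other knockouts by 0.213 (root mean square). The same value was 0.274, 0.202, 0.169 and 0.166 for knockouts 5, 7, 9 and 11. In knockout 10, 32 genes deviated by 1 log2 unit or more, against 64, 34, 5 and 8 in the others in the same order. Knockout 10 was singled out because it was highest for all 4 genes, so its shares are descriptions.

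Knockout 5 was low for the secreted carrier and the folate receptor but not for the transcription factor. It deviated from its group mean by -0.37 log2 units for Ttr, -0.67 for Folr1 and -0.12 for Clic6, and by 0.02 for Otx2. This array also had the lowest median of all 9 (7.61) and the largest root mean square deviation among the knockouts (0.274). The part of these array-wide shifts in its low Ttr and Folr1 was not tested. Knockout 9 was lowest for Clic6, by -0.57 from its group mean, and knockout 7 was lowest for Otx2, by -0.43.

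Among the controls, embryo 1 was below its group mean for all 4 genes and embryo 2 above it for all 4. Of the 10 knockout and 6 control pairs these arrays were the closest, with a root mean square difference of 0.153 log2 units over all genes. Even so, control 1 minus control 2 was -0.34 for Ttr, -0.76 for Folr1, -0.22 for Otx2 and -0.37 for Clic6, each larger in size than that root mean square. Differences as large as that of Folr1 were found at 0.213% of the other genes of this pair, and as large as those of Clic6, Ttr and Otx2 at 2.84%, 3.36% and 10.9%. Both embryos were labelled female and control, so neither label divides them. The pair was chosen after its values were seen.

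Control 4 was the highest control for Otx2 and Clic6, by 0.67 and 0.35 log2 units above the group mean, but lay at the group mean for Ttr (-0.01) and near it for Folr1 (0.03). Compared with the mean of the other controls, its Otx2 excess of 0.90 was matched or exceeded by 4.73% of all genes, on an array that deviated at many genes. Control 3 had the lowest Otx2 value of the series, at -0.85 log2 units from the mean of the other controls. A shift of that size was found at 0.533% of the other genes on that array. Its Ttr, Folr1 and Clic6 values deviated from the group means by -0.01, -0.05 and -0.08 log2 units.

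**Figure D4:**
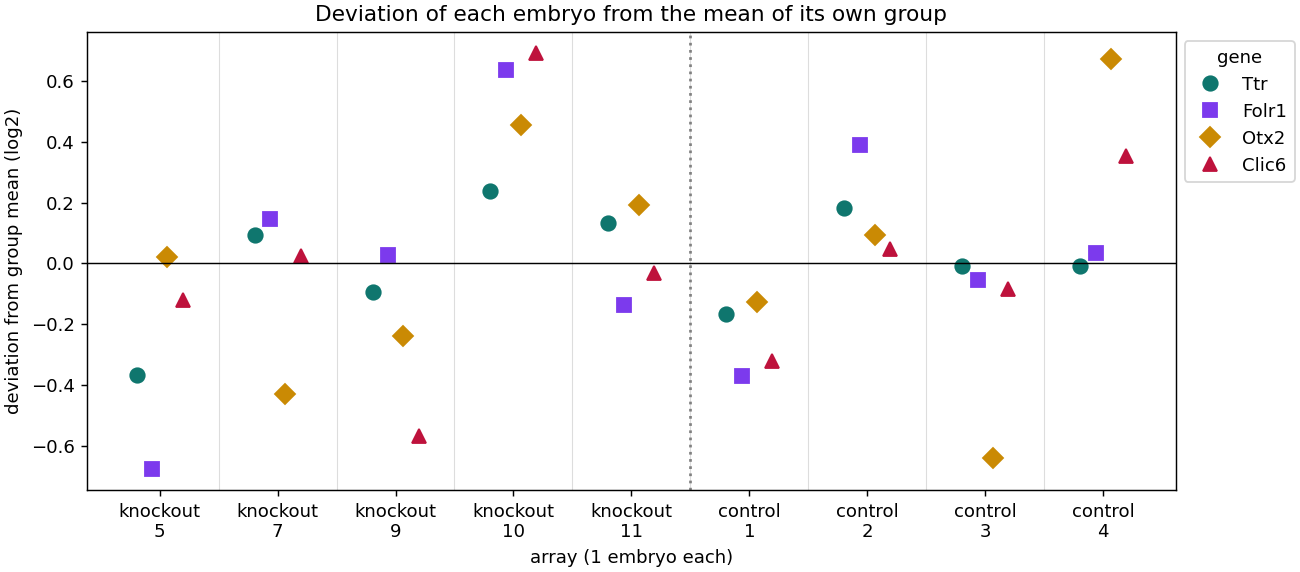
Deviation of each embryo from the mean of its own group (y axis, log2 units) for Ttr, Folr1, Otx2 and Clic6, with knockouts left and controls right of the dotted line (x axis, 1 array per embryo). All 4 genes lie above 0 in knockout 10 and control 2 and below 0 in controls 1 and 3, whereas knockouts 5 and 7 and control 4 have the genes spread apart.

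Within a group, embryos can be compared in 10 pairs of knockouts and 6 pairs of controls. All 4 genes differed in 1 direction in 5 of the 10 knockout pairs and in 3 of the 6 control pairs. Of these 5 knockout pairs, 4 include knockout 10. The pairs share embryos and are not independent, so these counts are descriptions. How often 4 other genes differ in 1 direction was not counted. Among the knockouts, array medians were lowest in knockout 5 (7.61) and highest in knockout 10 (7.74). The part of such array-wide shifts in the counts was not tested. Folr1 differed by at least the root mean square over all genes in 8 of the 10 knockout pairs and 4 of the 6 control pairs, Otx2 in 7 and 6, Clic6 in 7 and 4, and Ttr in 5 and 1. Of all genes, 18.9% to 27.2% differed by that much in a given pair.

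Whether the genes varied together between embryos was measured by the correlation of their deviations from the group means over the 9 arrays, for 6 pairs of genes. Ttr and Folr1 varied together most closely, with Pearson's r = 0.90 (n = 9, exact permutation test within groups, two-sided, p = 0.00486, adjusted over the 6 pairs p = 0.0292). Spearman's rho for this pair was 0.80 (exact permutation p = 0.025, adjusted p = 0.075). Without knockouts 5 and 10, the embryos farthest from the median of Ttr, r was 0.71 (n = 7). The call did not hold throughout: with 1 array left out it was kept only without knockout 11 (r = 0.98, exact permutation, adjusted p = 0.0208). Without any other array, r lay between 0.79 and 0.92 with adjusted p of 0.0521 to 0.142 in the same exact test. After subtraction of the array medians, r was 0.86 with an adjusted p of 0.05 (exact permutation), at the threshold and not under it. After quantile normalization the call was kept, with r = 0.91 and an adjusted p of 0.025 (exact permutation). How far the normalization of the deposited values, whose method is not stated, moved these deviations together was not tested beyond these settings.

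No other pair passed. Otx2 and Clic6 had r = 0.64 and rho = 0.63 (n = 9, exact permutation p = 0.0521 and 0.0965, adjusted p = 0.156 and 0.145). Without controls 3 and 4, the farthest from the median of Otx2, r was 0.70 (n = 7). Clic6 had r = 0.58 with Ttr and 0.59 with Folr1 (n = 9, exact permutation, adjusted p = 0.260 for both), with rho of 0.79 and 0.75 (exact permutation, adjusted p = 0.075 and 0.0847). Without knockouts 5 and 10 these r values were 0.68 and 0.39. Leaving out knockout 10 alone gave r = 0.36 for Clic6 with Ttr and 0.21 for Clic6 with Folr1, and leaving out any other single array gave 0.52 to 0.76 and 0.53 to 0.78. The lowest correlations were those of Otx2 with Ttr and Folr1, at r = 0.23 and 0.25 (n = 9, exact permutation, adjusted p = 0.519 for both). The corresponding rho values were 0.38 and 0.27 (exact permutation, adjusted p = 0.378 and 0.525), and r without knockouts 5 and 10 was 0.21 and 0.09. Without knockout 10 alone, Otx2 had r = 0.02 with Ttr and -0.05 with Folr1, and without knockout 5 alone, 0.39 and 0.37. The difference between these correlations was not tested.

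**Figure D5:**
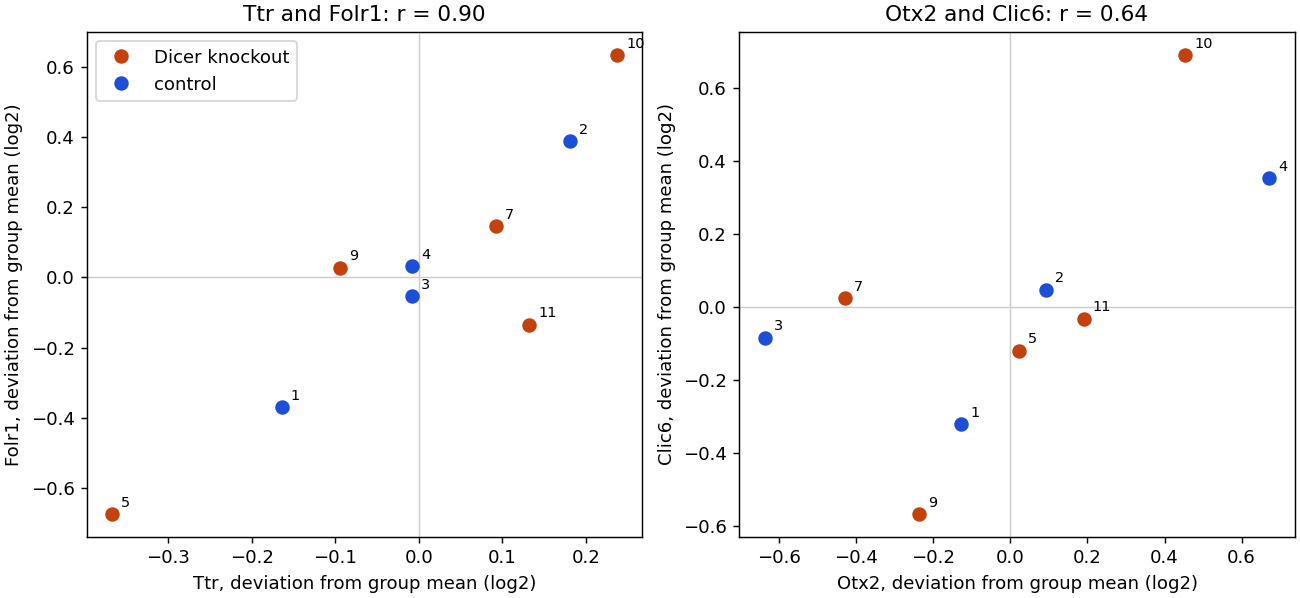
Deviations from the group mean in log2 units, Ttr against Folr1 on the left and Otx2 against Clic6 on the right, with Dicer knockouts in orange and controls in blue and replicate numbers beside the points. Ttr and Folr1 (r = 0.90) run from knockout 5 at the low end to knockout 10 at the high end; Otx2 and Clic6 (r = 0.64) are highest in knockout 10 and control 4.

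These correlations were also set beside those with all other genes of the table, as a description over the same 9 arrays. Folr1 ranked 15th of 12187 genes by r with Ttr, and Ttr ranked 18th by r with Folr1, so 0.123% and 0.148% of the genes had r at least as high. For Clic6, 10.02% of the genes were at least as close to Ttr and 9.82% at least as close to Folr1. Otx2 ranked below Clic6 for both but above the middle, since 36.4% of the genes were at least as close to Ttr and 36.5% at least as close to Folr1. By r with Clic6, Otx2 was the nearest of the other 3, with 5.34% of all genes at least as high. With 9 arrays, many genes reach high correlations. Values over 0.9 were reached by 11 genes for Ttr, 15 for Folr1, 28 for Otx2 and 27 for Clic6, and values under -0.9 by 15, 14, 30 and 9 genes in the same order.

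The nearest gene by this measure had r = 0.96 for Ttr (ENSMUSG00000018651), 0.96 for Folr1 (ENSMUSG00000049382), 0.99 for Otx2 (ENSMUSG00000023830) and 0.96 for Clic6 (ENSMUSG00000010136). No symbols were paired with these identifiers. The gene nearest to Otx2 was higher in the knockouts, at a mean of 8.76 log2 units against 7.86 in the controls, and passed the test (log2 change 0.90, limma, adjusted p = 0.00518). The other 3 did not pass (limma, adjusted p = 0.210, 0.413 and 0.7105 for those nearest to Ttr, Folr1 and Clic6). The 3 nearest genes of each had r from 0.92 to 0.96 for Ttr, 0.93 to 0.96 for Folr1, 0.96 to 0.99 for Otx2 and 0.956 to 0.962 for Clic6, and none of the 4 choroid plexus genes was among them.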

How the data were processed

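The deposited table holds log2 expression values that the authors had already processed, 1 per gene and array, for 12188 Ensembl identifiers. The affy package is named in the submitters' processing notes. The sources used here give neither its settings nor the array type, background correction or normalization, and no detection call came with the values. The log2 scale was read from the values. At 24.4% of the genes, at least 2 arrays held an identical value, as Ttr did on knockout 7 and controls 3 and 4. No column lacked a sample (0 columns).

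Symbols of the 4 genes come from the list that defined them. A RefSeq gene table (GRCm38.p6, 49997 genes) paired 0 identifiers with a symbol, so 12 gene lists (174 entries) for other choroid plexus genes, neighbouring tissues and other cell types could not be matched and were not used, and no coordinates or sequences are given. The members and lists were chosen with earlier results of these data known.

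Knockout against control was fitted with limma 3.58.1 (R 4.3.3; lmFit and eBayes) over all genes and 9 arrays without covariates, with calls made at an adjusted p under 0.05 (Benjamini-Hochberg over the table). A second fit had 3 groups by genotype and sex. The fit was tested on simulated data. Correlations used deviations from the group means, with exact enumeration of the 2880 orders of arrays within groups (scipy 1.17.1). By rule, the 4 genes and the genes nearest to each by r are named, 2 identifiers in each direction of the group difference. Nothing in the sources used here says more of the embryos' independence, so the p-values hold only if the embryos are independent. The effect of shared litters on them was not tested. The number of arrays limits the precision. The other settings tried were a fit of males alone, a covariate for sex, median subtraction, quantile normalization, no dim genes, robust spread with an intensity trend, Welch and exact permutation tests, weights per array, Spearman's rho and each array left out.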

Additional observations from a re-analysis of the deposited data

How the results depend on the processing

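No alternative fit called any of the 4 choroid plexus genes (0 called in 18 fits of knockout against control and in 10 of the contrast with control males). The smallest adjusted p was 0.120, for Otx2 without control 4, where its unadjusted p was under 0.05. Ttr and Folr1 kept a lower and Otx2 a higher mean in the knockouts in all 18 fits of knockout against control, except that Folr1 was not tested with dim genes left out. Weights per array were lowest for control 4, at 0.243. The log2 differences with these weights were -0.03 for Ttr, -0.10 for Folr1, 0.36 for Otx2 and 0.18 for Clic6. After quantile normalization they were -0.03, -0.21, 0.29 and 0.13 in the same order. With each array left out, the log2 difference ranged from -0.16 to -0.01 for Ttr, -0.38 to -0.05 for Folr1, 0.05 to 0.49 for Otx2 and -0.0804 to 0.23 for Clic6. Clic6 turned to -0.0433 with sex as a covariate and with males only. Since all knockouts were labelled male, these settings give the same estimates as the contrast with control males and do not repeat it independently. In the contrast with control males, Clic6 turned to 0.0192 after quantile normalization. With each array left out of that contrast, it ranged from -0.26 to 0.18, and Otx2 from -0.41 to 0.90. The count of called genes, 2997 over the table, was 4562 with array weights, 1973 with the Welch statistic, 1285 with sex as a covariate and 324 with males only, and 1976 to 3263 with each array left out. For Ttr with Folr1 the call was kept with quantile normalization (r = 0.91) and lost with rho (0.80) and median subtraction (r = 0.86). Its r ranged from 0.79 to 0.98 with each array left out. With each array left out, r ranged from -0.0487 to 0.37 for Folr1 with Otx2, 0.02 to 0.39 for Ttr with Otx2, 0.36 to 0.76 for Ttr with Clic6, 0.21 to 0.78 for Folr1 with Clic6 and 0.53 to 0.75 for Otx2 with Clic6. The causes of these changes were not tested. No paired analysis was possible because it is not stated which embryos shared a litter. The alternatives planned for the gene lists were not run. With 9 arrays, the SE of the 4 differences was 0.12 to 0.25 log2 units.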
